A study of Homo sapiens with 4 samples.

Results

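The BCL2 family decides whether the mitochondrial outer membrane stays closed or is permeabilised during apoptosis, and the RNA of 10 of its genes was followed here in Jurkat T cells. The 10 members were taken by gene symbol from the 50868 genes listed in the deposited tables, and each symbol was found. They comprise 4 anti-apoptotic genes (BCL2, BCL2L1, MCL1 and BCL2A1), 2 effectors (BAX and BAK1) and 4 BH3-only genes (BCL2L11, BBC3, PMAIP1 and BID), so that 6 are pro-apoptotic.

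In this family the anti-apoptotic proteins hold the effectors BAX and BAK1 and the BH3-only proteins in check by binding their BH3 helix in a groove. BH3-only proteins are the stress-responsive arm: they occupy that groove or engage the effectors directly, and the effectors then form pores that release cytochrome c to the apoptosome. In T cells the family is known for setting survival, with BCL2 supporting resting cells, BCL2A1 and MCL1 supporting activated cells, and BCL2L11 (BIM) driving the removal of thymocytes and spent effector cells.

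Jurkat is an established human leukaemic T lymphoblast line, unmodified (labelled WT) in every library. RNA-seq libraries were made after 24 h with the vehicle DMSO, with 0.5 μM JQ1, with DMSO plus 150 ng/ml PHA, or with 0.5 μM JQ1 plus 150 ng/ml PHA. JQ1 is an inhibitor of BET bromodomain proteins, which read acetylated chromatin, and PHA (phytohemagglutinin) is a plant lectin that stimulates T cells through surface glycoproteins including the T-cell receptor. Each condition is 1 library of this single line, so no difference below has a replicate check, no p-value is given, and every interval covers counting error only.

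Total counts lay between 18620954 and 19685401, so that 3 counts, taken as the limit of detection, correspond to 0.152 to 0.161 CPM (counts per 1000000 counts of the library). The labelled treatments were seen in their reporter genes. HEXIM1, a gene commonly raised by BET inhibitors, was 3.0-fold higher with JQ1 and 3.02-fold higher with JQ1 when PHA was present. In DMSO-treated cells PHA went with 19.4-fold higher CD69 and 81.2-fold higher EGR1, both immediate markers of T-cell activation. In JQ1-treated cells the PHA folds were smaller, at 4.10 for CD69 and 16.9 for EGR1. The JQ1 + PHA library was 6.49-fold below the DMSO + PHA library in CD69 and 5.83-fold below it in EGR1. All 11 T-cell markers had a mean FPKM (fragments per kilobase of gene length, scaled per 1000000 counts) of at least 1, with a summed FPKM of 910, 689, 1216 and 800 in the DMSO, JQ1, DMSO + PHA and JQ1 + PHA libraries. Of 4 B-cell markers 1 reached that level and none was at 0 in all libraries. Their summed FPKM was 7.56, 1.06, 6.39 and 1.01 in the same order. The highest value of a single B-cell marker was 7.48 FPKM, so that the DMSO sum was nearly all 1 gene. The T-cell and B-cell sums were lower with JQ1, as were several members below, and their part in those differences was not tested. None of 4 myeloid markers reached a mean FPKM of 1 (summed at most 0.155, with CSF1R at 0). In bulk RNA, fewer cells of a kind and less RNA per cell cannot be told apart.

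What the members share in sequence is the BH3 core, the stretch through which family members bind each other. It is given as coding DNA because it is the feature that places anti- and pro-apoptotic genes in a single family. The core was searched in the GENCODE 44 canonical coding sequences as leucine, 3 residues other than proline, glycine or alanine, and aspartate. Of the 10 members, 9 held exactly 1 match. How often other coding sequences hold this short pattern was not determined, so that this count cannot be set against a background. Each line gives 27 bases (9 codons) of the coding strand, 5′ to 3′, with the codons for leucine, for glycine or alanine, and for aspartate in capitals. The first 3 lines are anti-apoptotic genes, the next 2 effectors, and the last 4 BH3-only genes.
BCL2: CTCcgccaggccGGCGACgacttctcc
BCL2L1: CTGagggaggcaGGCGACgagtttgaa
MCL1: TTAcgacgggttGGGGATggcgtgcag
BAX: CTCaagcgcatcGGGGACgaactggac
BAK1: CTCgccatcatcGGGGACgacatcaac
BCL2L11: TTGcggcgtattGGAGACgagtttaac
BBC3: CTGcggcggatgGCGGACgacctcaac
PMAIP1: CTCaggagatttGGAGACaaactgaac
BID: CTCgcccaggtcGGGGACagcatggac

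All 9 stretches are exonic and coding (GRCh38). They lie at chr18:63318352-63318378 in exon 2 of BCL2, at chr20:31721925-31721951 in exon 2 of BCL2L1 and at chr1:150578868-150578894 in exon 1 of MCL1, all on the minus strand. The effector stretches are at chr19:48955787-48955813 in exon 3 of BAX (plus strand) and at chr6:33575390-33575416 in exon 4 of BAK1 (minus strand). Those of the BH3-only genes are at chr2:111150103-111150129 in exon 3 of BCL2L11 (plus), chr19:47226582-47226608 in exon 3 of BBC3 (minus), chr18:59902673-59902699 in exon 2 of PMAIP1 (plus) and chr22:17739418-17739444 in exon 4 of BID (minus). BBC3 was the member with an alanine codon where the other 8 carried a glycine codon. BCL2A1 had no match to this pattern, which says only that this pattern is not in its coding sequence.

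Across the 4 libraries MCL1 was the most abundant member and PMAIP1 the next, both as FPKM and per kilobase of merged exons. MCL1, a short-lived anti-apoptotic protein, ranged from 19.7 to 34.7 FPKM, and PMAIP1 (NOXA), a BH3-only protein that binds MCL1, from 14.0 to 18.4 FPKM. BCL2L1, BAK1 and BID followed at 4.17 to 7.34 FPKM, and their order among themselves changed with the library and with the length scale. BCL2 and BAX lay between 1.13 and 3.34 FPKM, also in an order that changed, and BCL2L11 at 0.534 to 1.31 FPKM. BBC3 (PUMA) never exceeded 0.304 FPKM. Mean FPKM reached 1 for 7 of the 10 members and not for BCL2A1, BCL2L11 and BBC3, whose means were 0.445, 0.867 and 0.215. Levels of different genes depend on the length the authors divided by. For all 10 members the length implied by count and FPKM exceeded the merged exons of GENCODE 44. It was 1.29 times as long for BCL2 and 2.56 times for BID, so that comparisons of level between genes depend on the scale. Start and end equalled GENCODE 44 for 6 of the 10 members. The lower coordinate of MCL1, its downstream end on the minus strand, is 150574551 as deposited and 150560895 in GENCODE 44. Its merged exons may therefore include sequence outside the counted locus. Ratios between libraries for 1 gene do not depend on it.

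**Figure D1:**
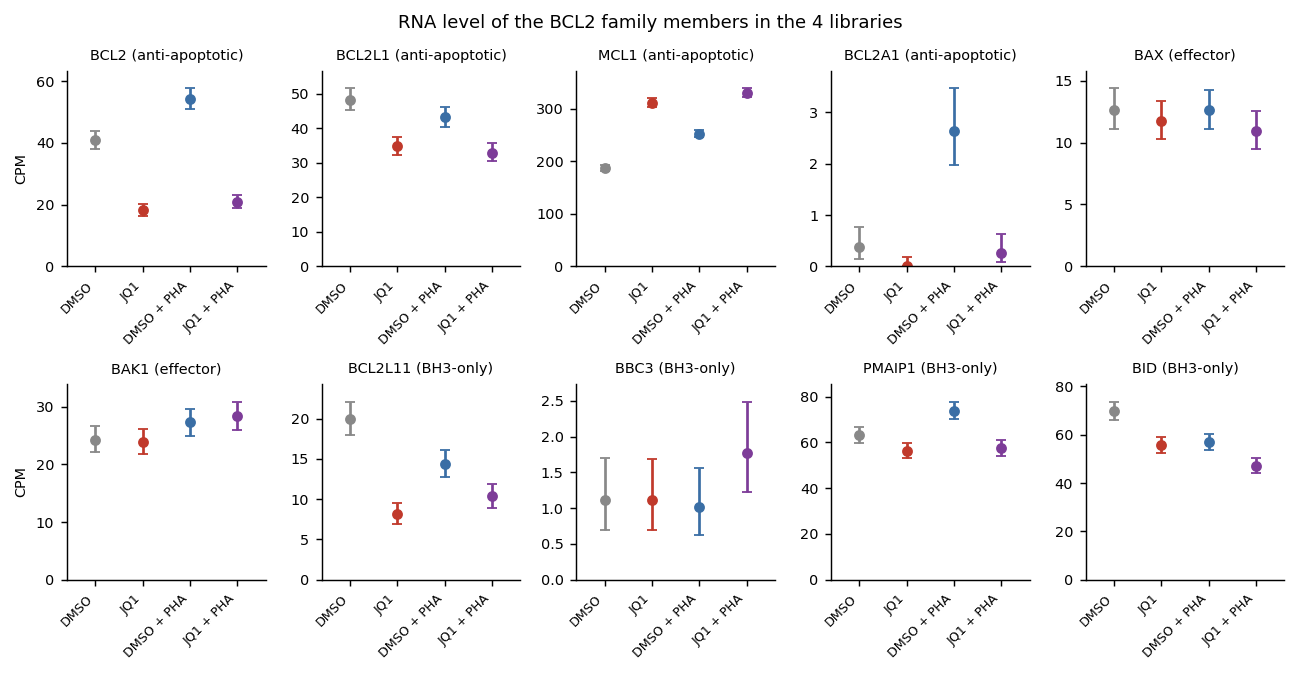
CPM of each member in each library (1 library per condition), with 95% exact Poisson intervals that cover counting error only; each panel has its own axis starting at 0. BCL2, BCL2L1 and BCL2L11 were lower in both JQ1 libraries than in both DMSO libraries, and MCL1 was higher, with intervals that did not overlap. BCL2A1, BAX, PMAIP1 and BID were also lower in both JQ1 libraries, but some of their intervals overlapped. BCL2A1 reached 52 counts only with DMSO + PHA.

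BCL2, the founding anti-apoptotic gene (chr18:63123346-63320128, minus strand), had 771 counts (2.52 FPKM) with DMSO, 360 (1.13 FPKM) with JQ1, 1068 (3.34 FPKM) with DMSO + PHA and 387 (1.28 FPKM) with JQ1 + PHA. Both JQ1 libraries were below both DMSO libraries. As shares of all counts, BCL2 was 2.24-fold lower with JQ1 than with DMSO (log2 ratio -1.16, 95% interval -1.35 to -0.98) and 2.61-fold lower with JQ1 + PHA than with DMSO + PHA (log2 ratio -1.38, -1.56 to -1.22). It was the member past 2-fold in both JQ1 comparisons among those with mean FPKM of at least 1. PHA went with 1.32-fold more BCL2 in DMSO-treated cells (log2 ratio 0.40, 0.27 to 0.54), and in JQ1-treated cells the interval of the PHA log2 ratio ran from -0.03 to 0.40. Among all 11503 genes with mean FPKM of at least 1, 7.12% lay below BCL2 in the JQ1 comparison without PHA and 4.51% in the one with PHA, on log2 ratios of FPKM + 0.1.

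BCL2L1 encodes BCL-XL, the anti-apoptotic protein that binds most BH3-only proteins and both effectors (chr20:31664452-31723989, minus strand). Its counts were 909 (6.85 FPKM) with DMSO, 687 (4.95 FPKM) with JQ1, 852 (6.13 FPKM) with DMSO + PHA and 614 (4.67 FPKM) with JQ1 + PHA. The order was again both DMSO libraries above both JQ1 libraries, but with smaller steps than for BCL2. JQ1 went with 1.38-fold less BCL2L1 without PHA (log2 ratio -0.47, -0.61 to -0.32) and 1.31-fold less with PHA (log2 ratio -0.39, -0.54 to -0.24). The PHA log2 ratios were -0.16 (-0.30 to -0.02) without JQ1 and -0.08 (-0.24 to 0.08) with it.

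MCL1 was the anti-apoptotic gene that went the other way (chr1:150574551-150579738, minus strand). It had 3526 counts (19.7 FPKM) with DMSO, 6126 (32.7 FPKM) with JQ1, 4970 (26.5 FPKM) with DMSO + PHA and 6143 (34.7 FPKM) with JQ1 + PHA. The DMSO library was lowest, the DMSO + PHA library lay between, and the JQ1 libraries were highest and close to each other. The share of counts was 1.66-fold higher with JQ1 (log2 ratio 0.73, 0.67 to 0.79) and 1.31-fold higher with JQ1 in the presence of PHA (log2 ratio 0.39, 0.33 to 0.44). PHA went with 1.35-fold more MCL1 in DMSO-treated cells (log2 ratio 0.43, 0.37 to 0.49) and with 1.06-fold more in JQ1-treated cells (log2 ratio 0.08, 0.03 to 0.13). None of these steps reached 2-fold: 89.6% of tested genes lay below MCL1 in the JQ1 comparison without PHA and 79.1% in the one with PHA. The antisense gene ADAMTSL4-AS1, which overlaps MCL1, had at most 10 counts in any library.

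BCL2A1 (BFL-1/A1), an anti-apoptotic gene known as an activation-induced NF-κB target, was close to the detection limit except after PHA (chr15:79960889-79971446, minus strand). It had 7 counts (0.202 FPKM) with DMSO, 0 with JQ1, 52 (1.43 FPKM) with DMSO + PHA and 5 (0.146 FPKM) with JQ1 + PHA. The DMSO + PHA library stood alone as the high one. PHA went with 7.10-fold more BCL2A1 in DMSO-treated cells (log2 ratio 2.83, 1.68 to 4.21), and the JQ1 + PHA library was 9.84-fold lower than the DMSO + PHA library (log2 ratio -3.30, -4.98 to -1.98). Against DMSO the JQ1 library was at least 2.44-fold lower, counting 3 counts as the limit of the library at 0. The 5 counts with JQ1 + PHA were at least 1.76-fold above the JQ1 library on the same limit, but the counting interval of that ratio included no difference. BCL2A1 missed the FPKM filter, so that it does not enter the counts of members past 2-fold.

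The effector genes differed by at most 1.19-fold in the 4 comparisons. BAX (chr19:48954815-48961798, plus strand), the effector that moves from the cytosol to mitochondria, had 238 counts (2.16 FPKM) with DMSO, 231 (2.00 FPKM) with JQ1, 248 (2.15 FPKM) with DMSO + PHA and 204 (1.87 FPKM) with JQ1 + PHA. Its log2 ratios for JQ1 were -0.11 without PHA (-0.38 to 0.16) and -0.20 with PHA (-0.48 to 0.07), and those for PHA were -0.01 (-0.27 to 0.26) with DMSO and -0.10 (-0.38 to 0.18) with JQ1. All 4 intervals included 0, so that a BAX difference was not detectable at this depth. Some Jurkat sublines are known to lack BAX protein through frameshift mutation, which gene counts cannot show. BAK1 (chr6:33572547-33580293, minus strand), the effector that resides in the mitochondrial membrane, had 457 counts (6.29 FPKM) with DMSO, 470 (6.18 FPKM) with JQ1, 537 (7.06 FPKM) with DMSO + PHA and 528 (7.34 FPKM) with JQ1 + PHA. Both PHA libraries were the higher ones for BAK1. The JQ1 log2 ratios were -0.02 (-0.21 to 0.16) and 0.06 (-0.12 to 0.23), and those of PHA were 0.17 (-0.02 to 0.35) with DMSO and 0.25 (0.07 to 0.43) with JQ1. Of its pseudogenes, BAK1P1 had 8 to 12 counts and BAK1P2 0. How reads that match several genes were counted is not given, so these counts cannot show whether BAK1 shared reads with either.

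BCL2L11 encodes BIM, a BH3-only protein that binds every anti-apoptotic member (chr2:111119378-111168447, plus strand). It had 376 counts (1.31 FPKM) with DMSO, 160 (0.534 FPKM) with JQ1, 282 (0.941 FPKM) with DMSO + PHA and 193 (0.681 FPKM) with JQ1 + PHA. DMSO was highest and JQ1 lowest, with both PHA libraries between them. JQ1 went with 2.46-fold less BCL2L11 without PHA (log2 ratio -1.30, -1.57 to -1.03) and 1.38-fold less with PHA (log2 ratio -0.47, -0.74 to -0.20). The direction of the PHA ratio differed: the library with PHA was 1.40-fold lower in DMSO-treated cells (log2 ratio -0.48, -0.71 to -0.25) and 1.27-fold higher in JQ1-treated cells (log2 ratio 0.35, 0.04 to 0.66). Its mean of 0.867 FPKM lies just under the filter, and on the merged-exon scale it passes.

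BBC3 (chr19:47220822-47232766, minus strand), the p53-inducible BH3-only gene PUMA, had 21 counts (0.191 FPKM) under DMSO, 22 (0.192 FPKM) under JQ1, 20 (0.174 FPKM) under DMSO + PHA and 33 (0.304 FPKM) under JQ1 + PHA. The JQ1 + PHA library was the highest, but all 4 counting intervals included 0. The widest of them, DMSO + PHA against DMSO, ran from -1.09 to 0.82 around a log2 ratio of -0.14, so that differences of that size were not detectable at this depth. Beside this low level, only the library with both agents gave a log2 ratio above 0.5, at 0.80 (-0.04 to 1.68) against DMSO + PHA and 0.66 (-0.16 to 1.51) against JQ1.

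PMAIP1 (chr18:59899948-59904306, plus strand) had 1188 counts (15.7 FPKM) with DMSO, 1108 (14.0 FPKM) with JQ1, 1455 (18.4 FPKM) with DMSO + PHA and 1071 (14.3 FPKM) with JQ1 + PHA. The DMSO + PHA library was highest and the JQ1 libraries were the lowest. The JQ1 log2 ratios were -0.17 (-0.28 to -0.05) without PHA and -0.36 (-0.48 to -0.25) with PHA, and the PHA log2 ratios were 0.23 (0.12 to 0.34) with DMSO and 0.03 (-0.09 to 0.15) with JQ1.

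BID, which caspase-8 cleaves to carry death-receptor signals to mitochondria (chr22:17734138-17774770, minus strand), had 1313 counts (6.17 FPKM) with DMSO, 1099 (4.93 FPKM) with JQ1, 1121 (5.03 FPKM) with DMSO + PHA and 879 (4.17 FPKM) with JQ1 + PHA. It was lower with either agent and lowest with both. The log2 ratios were -0.32 (-0.44 to -0.20) for JQ1, -0.27 (-0.40 to -0.14) for JQ1 with PHA, -0.29 (-0.41 to -0.18) for PHA and -0.24 (-0.37 to -0.11) for PHA with JQ1. BID was the member whose 4 intervals all lay below 0.

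**Figure D2:**
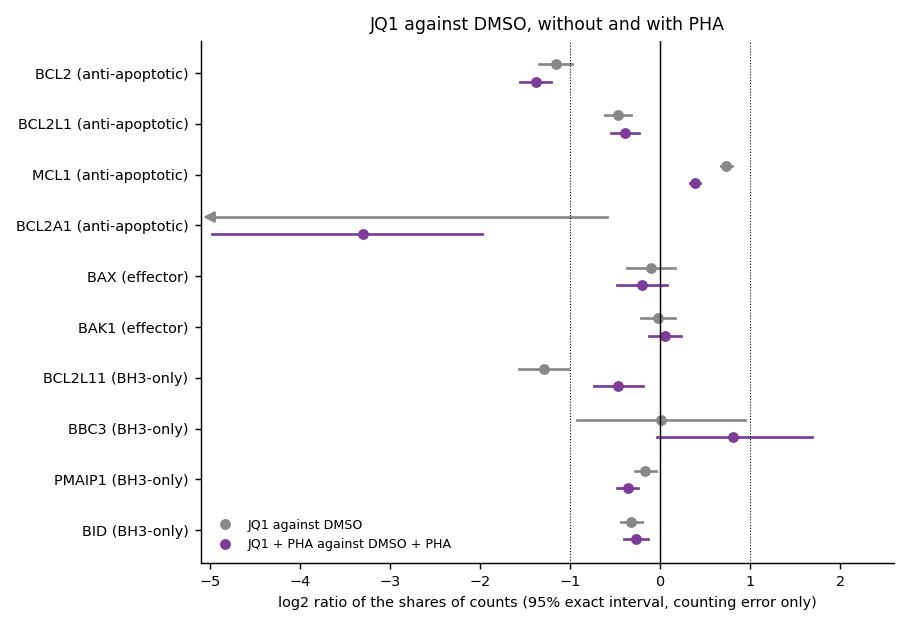
Log2 ratios of the shares of counts for JQ1 against DMSO without PHA (grey) and with PHA (purple), with 95% exact intervals for counting error; dotted lines mark 2-fold, and the arrow marks the open interval of BCL2A1, whose JQ1 library had 0 counts. MCL1 is the member whose intervals lie above 0 in both comparisons, while those of BCL2, BCL2L1, BCL2A1, BCL2L11, PMAIP1 and BID lie below 0 in both.

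Counted over the 7 members with mean FPKM of at least 1, JQ1 without PHA left 0 members at least 2-fold higher, where 5.22% of all tested genes were, and 1 at least 2-fold lower (BCL2), where 8.65% were. With PHA the counts were again 0 higher, beside 3.69% of tested genes, and 1 lower (BCL2), beside 8%. The counting interval excluded 0 for 5 of the 7 members without PHA, beside 75.6% of tested genes, and for 5 of 7 with PHA, beside 72.9%. These shares are near the background, and at this depth a counting interval that excludes 0 is the usual case. BCL2A1 and BCL2L11, which missed the filter, had intervals below 0 in both JQ1 comparisons, and BBC3 intervals that included 0.

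The anti-apoptotic members did not move as a group. Of the 3 that passed the filter, 1 (MCL1) was higher and 2 (BCL2 and BCL2L1) were lower in both JQ1 comparisons, with medians of -0.46 without PHA and -0.39 with PHA. The 4 pro-apoptotic members that passed had medians of -0.13 and -0.23, with counting intervals below 0 for PMAIP1 and BID and none above. Over all tested genes the medians were -0.01 and -0.02. The JQ1 comparisons with and without PHA use different libraries, whereas each of them shares a library with each PHA comparison.

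**Figure D3:**
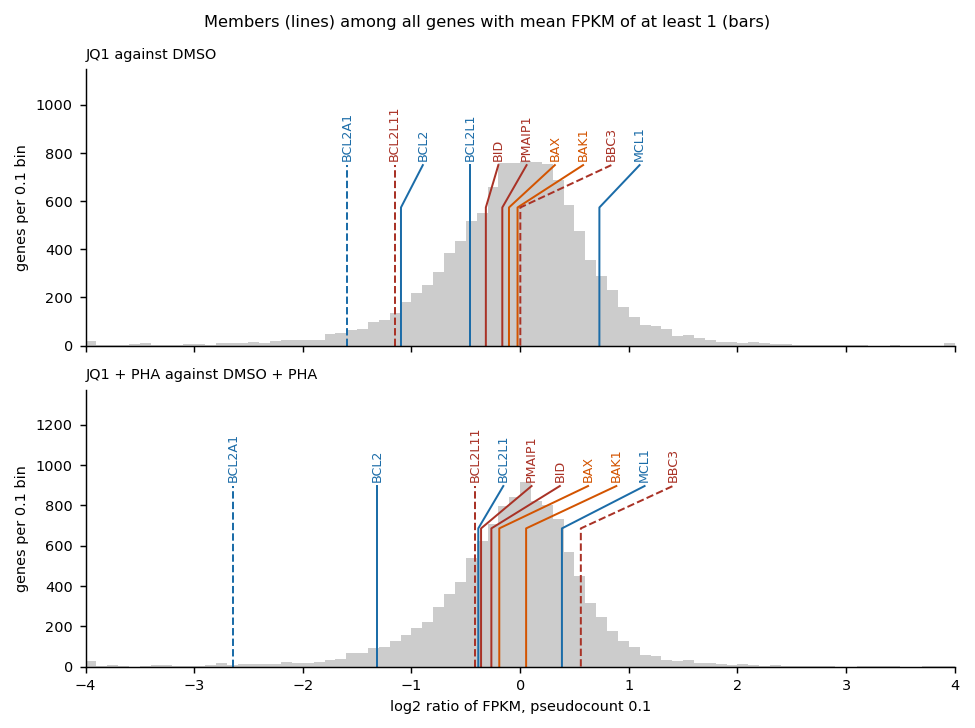
Histograms (bars, bins of 0.1) of the log2 ratio of FPKM + 0.1 over all 11503 genes with mean FPKM of at least 1, for JQ1 without PHA (top) and with PHA (bottom), the end bins holding all more extreme genes. Lines mark the members, blue for anti-apoptotic, orange for effector and red for BH3-only genes, dashed for the 3 members under the filter; BCL2 sits at -1.10 and -1.32 and MCL1 at 0.73 and 0.38.

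The size of the JQ1 ratio with PHA was compared with that without PHA for the 9 members with counts in all libraries. The counting interval of the difference excluded 0 for 3 of them. How often it did so over all tested genes was not determined, so that this count cannot be set against a background. For MCL1 the JQ1 log2 ratio was smaller with PHA, with a difference of -0.35 (-0.43 to -0.27). For BCL2L11 the log2 ratio with PHA was less negative, with a difference of 0.83 (0.45 to 1.21). PMAIP1 had a difference of -0.20 (-0.36 to -0.03), its lower level with JQ1 being more marked with PHA. For BCL2 the difference was -0.22 and its interval, -0.47 to 0.03, included 0. With 1 library per condition, whether any of these differences exceeds the spread between cultures was not tested.

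PHA alone left the members within 2-fold of the DMSO library, apart from the low-count BCL2A1. Of the 7 that passed the filter, 0 were at least 2-fold higher or lower in DMSO-treated cells, beside 2.1% and 1.19% of tested genes, and 0 in JQ1-treated cells, beside 1.04% and 1.03%. The counting interval excluded 0 for 5 of 7 members with DMSO, beside 49.8% of tested genes, and for 3 of 7 with JQ1 (MCL1, BAK1 and BID), beside 31.4%. In DMSO-treated cells BCL2, MCL1 and PMAIP1 were on the higher side and BCL2L1 and BID on the lower. The anti-apoptotic median was 0.39 with DMSO and 0.08 with JQ1, and the pro-apoptotic median 0.08 and -0.03.

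**Figure D4:**
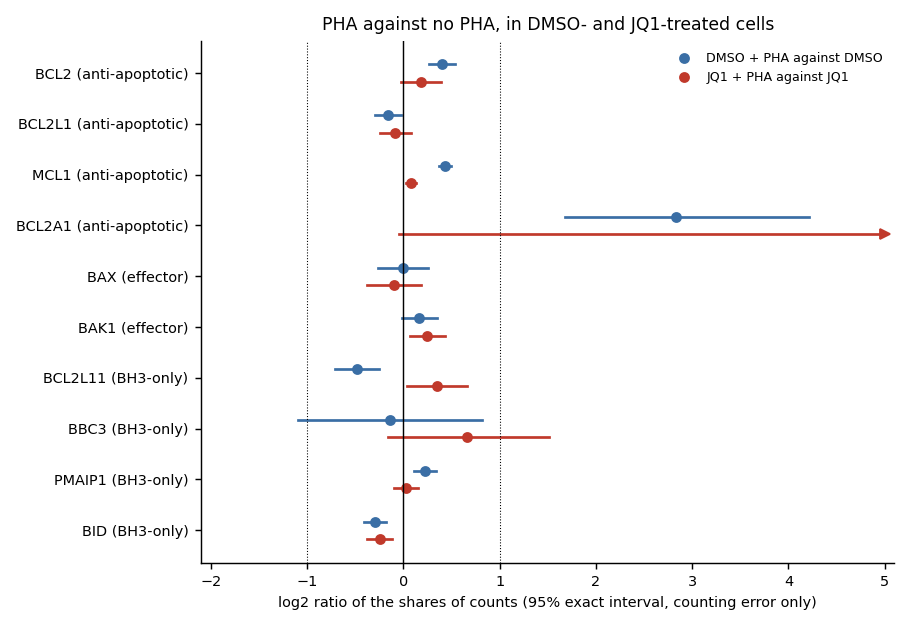
Log2 ratios of the shares of counts for PHA against no PHA in DMSO-treated (blue) and JQ1-treated (red) cells, with 95% exact intervals for counting error; dotted lines mark 2-fold, and the arrow marks the open interval of BCL2A1. BCL2L11 is the member with intervals on opposite sides of 0 (-0.48 with DMSO and 0.35 with JQ1), and BCL2A1 has the largest ratio in DMSO-treated cells (2.83).

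Pro- and anti-apoptotic members were also set against each other within each library, as ratios of FPKM. These ratios are levels of RNA and say nothing of protein. BAX to BCL2 was 0.855 under DMSO, 1.78 under JQ1, 0.643 under DMSO + PHA and 1.46 under JQ1 + PHA. Per kilobase of merged exons it was 1.5, 3.13, 1.13 and 2.57 in the same order, so that which of the genes was higher in the libraries without JQ1 turned with the length scale, while the order of the libraries did not. JQ1 thus went with a 2.08-fold higher ratio (1.67 to 2.59) without PHA and a 2.27-fold higher one (1.82 to 2.83) with PHA, where the counting interval excluded 0 for BCL2 and included it for BAX.

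BCL2L11 to BCL2, the BH3-only gene BIM against the protein it classically binds, was 0.521 under DMSO, 0.475 under JQ1, 0.282 under DMSO + PHA and 0.532 under JQ1 + PHA, and on merged exons 0.912, 0.831, 0.494 and 0.933. The DMSO + PHA library was the low one and the other 3 were close. JQ1 left the ratio at 0.911-fold without PHA (0.729 to 1.14), where both genes were lower, and at 1.89-fold with PHA (1.52 to 2.35). PHA left it at 0.541-fold in DMSO-treated cells (0.452 to 0.648), whereas with JQ1 present it was 1.12-fold (0.870 to 1.45).

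PMAIP1 to MCL1, the pair with the highest levels, was 0.799 under DMSO, 0.429 under JQ1, 0.694 under DMSO + PHA and 0.413 under JQ1 + PHA, and on merged exons 0.959, 0.515, 0.833 and 0.496. Both JQ1 libraries were low, at 0.537-fold (0.490 to 0.588) without PHA and 0.596-fold (0.546 to 0.650) with PHA of their DMSO libraries. BBC3 to BCL2L1 was 0.0280 under DMSO, 0.0388 under JQ1, 0.0284 under DMSO + PHA and 0.0650 under JQ1 + PHA, and on merged exons 0.0304, 0.0422, 0.0309 and 0.0708. On 20 to 33 counts of BBC3, the JQ1 fold of this ratio was 1.39 without PHA (0.756 to 2.54) and 2.29 with PHA (1.30 to 4.03), and the JQ1 + PHA library was the high one. MCL1 to BCL2, a pair chosen after its values were seen, was 7.81 with DMSO and 7.95 with DMSO + PHA against 29.1 with JQ1 and 27.1 with JQ1 + PHA, a 3.72-fold (3.26 to 4.25) and a 3.41-fold (3.02 to 3.85) higher ratio with JQ1. Its merged-exon values were 9.27, 9.43, 34.5 and 32.2. The fold of a pair ratio between libraries does not depend on the length scale.

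Summed over members, anti-apoptotic FPKM was 29.3 under DMSO, 38.8 under JQ1, 37.4 under DMSO + PHA and 40.8 under JQ1 + PHA, and pro-apoptotic FPKM was 31.8, 27.9, 33.8 and 28.7 in the same order. The sum of anti- over that of pro-apoptotic members was 0.919, 1.39, 1.11 and 1.42, and on the merged-exon scale 0.709, 1.08, 0.872 and 1.12. These sums followed MCL1, which held 67.3% of the anti-apoptotic FPKM under DMSO, 84.3% under JQ1, 70.9% under DMSO + PHA and 85.0% under JQ1 + PHA. Without MCL1 the anti-apoptotic sum was 9.57, 6.07, 10.9 and 6.10 FPKM, and its ratio to the pro-apoptotic sum was 0.300, 0.218, 0.323 and 0.212. Whether the anti- over pro-apoptotic ratio was higher or lower with JQ1 therefore depended on 1 gene.

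**Figure D5:**
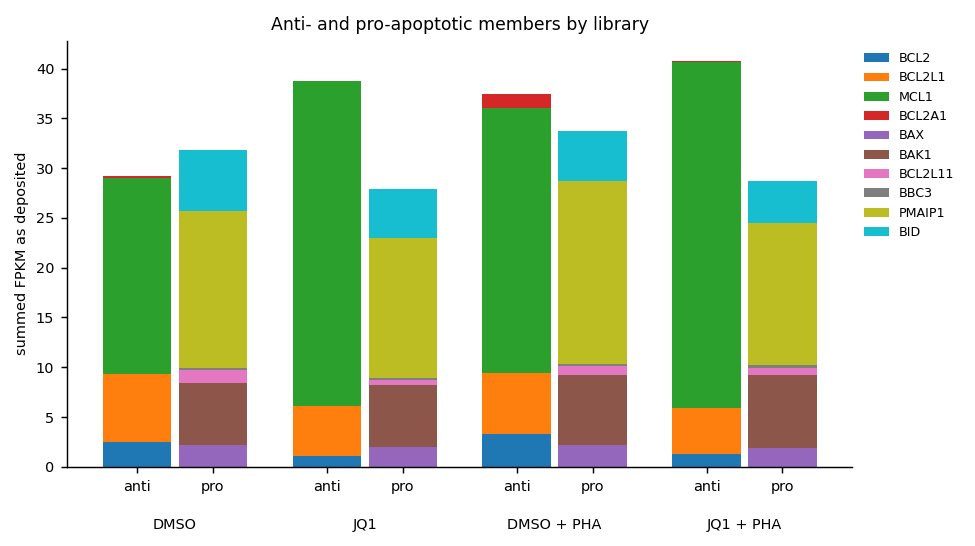
FPKM as deposited, stacked by member, for the 4 anti-apoptotic (left bar) and 6 pro-apoptotic (right bar) members in each library (1 library per condition, no error bars). MCL1 (green) makes up 67.3% to 85.0% of the anti-apoptotic bars, which reach 29.3 to 40.8 FPKM, while the pro-apoptotic bars reach 27.9 to 33.8 FPKM.

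The other 11 BCL2 family genes gave 6 with mean FPKM of at least 1. Without PHA, JQ1 went with at least 2-fold higher BMF and BCL2L2 and with no gene at least 2-fold lower, at a median of -0.20. Both passed the filter only through their JQ1 libraries, which favours higher calls, so that these counts support nothing beyond the values themselves. With PHA, BMF was higher and BIK lower, beside 3.69% and 8% of all tested genes, at a median of -0.10. BMF, a BH3-only gene tied to the cytoskeleton through dynein light chain 2, had the largest upward JQ1 ratios of the family genes with mean FPKM of at least 1. It had 72 counts (0.321 FPKM) with DMSO, 461 (1.97 FPKM) with JQ1, 65 (0.277 FPKM) with DMSO + PHA and 512 (2.31 FPKM) with JQ1 + PHA, so that both JQ1 libraries were far above both DMSO libraries. The JQ1 fold was 6.12 without PHA (log2 interval 2.25 to 2.99) and 8.33 with PHA (2.68 to 3.45). BCL2L2 (BCL-W), an anti-apoptotic gene, was 2.53-fold higher with JQ1 and 1.80-fold higher with JQ1 and PHA, at FPKM of 0.758, 1.92, 0.744 and 1.34 in the order above. BIK, a BH3-only gene of the endoplasmic reticulum, was 1.53-fold lower without PHA and 2.11-fold lower with PHA, at 8.98, 5.87, 11.3 and 5.35 FPKM.

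BMF and BIK carry the same core as the members. It is shown because, with PHA present, these BH3-only genes differed by at least 2-fold with JQ1 in opposite directions. Without PHA, BIK was 1.53-fold lower with JQ1. It lies at chr15:40104198-40104224 in exon 4 of BMF (minus strand) and at chr22:43127716-43127742 in exon 3 of BIK (plus strand), with capitals as above.
BMF: CTTcagtgcattGCAGACcagttccac
BIK: CTGgcctgcatcGGGGACgagatggac

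Genes upstream and downstream of the family were counted for JQ1 in the absence and in the presence of PHA. Of 14 apoptosome genes and inhibitors, 13 passed the filter, with 1 at least 2-fold higher (APAF1) and 0 lower without PHA (median -0.22) and 0 in either direction with PHA (median -0.02). The count of 1 was 2 with a pseudocount of 0.01, rescaled FPKM, centring, TMM or DESeq2 size factors, and 0 with a pseudocount of 1. Beside these and the following counts stand the shares of all tested genes given above, 5.22% higher and 8.65% lower without PHA and 3.69% and 8% with PHA. Of 19 transcription regulators of the family, 16 passed, with 2 higher and 0 lower without PHA (median 0.05) and 2 higher and 1 lower (MYB) with PHA (median 0.09). Both comparisons had the same 2 genes on the higher side: FOXO1, a forkhead factor known to activate BCL2L11, at 3.98-fold and 2.83-fold, and MYC, at 2.46-fold and 2.96-fold. FOXO1 was at 0.845 and 1.09 FPKM and MYC at 0.629 and 0.918 FPKM in the libraries without JQ1, so that both reached the filter only through the JQ1 libraries where they were high. For 14 of 16 p53 target genes that passed, 1 was higher and 2 lower (FAS and AEN) without PHA (median 0.42) and 2 higher and 0 lower with PHA (median 0.28), XPC being the other and TP53INP1 being higher in both at 8.30-fold and 3.66-fold.

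Of 17 listed protein partners and turnover enzymes 15 were matched by symbol and 14 passed the filter, with 1 higher and 1 lower without PHA (median 0.34) and 2 higher and 1 lower with PHA (median 0.29), BAG3 being higher in the comparison with PHA. APAF1, MYB, FAS, AEN, XPC and BAG3 are named after their values were seen. DYNLL2, the dynein light chain that holds BMF, was 2.37-fold higher with JQ1 and 2.36-fold higher with JQ1 and PHA, at 26.6 FPKM with DMSO and 63.0 FPKM with JQ1. HSPA5 (BiP), the chaperone of the endoplasmic reticulum, was 2.30-fold and 2.44-fold lower.

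Promoter windows from RefSeq (GRCh38.p14, 250 bases before to 50 after a transcript start) were matched for 9 members, with 14 windows. MCL1 has no entry. The E-box CACGTG, on both strands, was in windows of BAX, BBC3 and BID and in 7.26% of all 35116 windows. GGAAAA, the core letters of NFAT sites, was in those of BAK1, BBC3, BCL2 and BCL2A1 and in 24.0% of windows, the AP-1 letters TGANTCA in that of BBC3 and in 7.71%, and TATAAA in those of BCL2A1 and BCL2L1 and in 11.5%. Positions of different motifs in the members' windows did not overlap, and CACGTG and TGANTCA read alike on both strands. Overlapping windows of BID held the same CACGTG, at -106 and at -47 from their transcript starts. Members were counted as genes, which can have several windows, whereas the percentages are shares of single windows, so that they are unlike measures. A match is a run of letters, not a binding site.

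By the 3 log2 ratios to the DMSO library, the genes nearest to BCL2A1 at a pseudocount of 0.1 were DUSP2, UBXN10 and PREX2, but its JQ1 ratio rests on a library with 0 counts and was -0.27 in place of -1.59 at a pseudocount of 1, so that distances to it are not measured. Those nearest to BCL2L11 were MRPS17 (Euclidean distance 0.0711), HMGA1P3 (0.107) and TMBIM1 (0.108), each over 4 libraries of which DMSO is shared. HMGA1P3 is a pseudogene that can share reads with its parent gene. Within a distance of 0.25 of BCL2L11 there were 56 tested genes.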

How the data were processed

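RNA-seq of Jurkat cells was deposited as 1 table per library, with 4 libraries. The authors aligned reads to GRCh38 with Hisat2 2.0.4, and the submitters' processing notes also name TopHat2 2.0.9 and Cufflinks 2.1.1 without a role. The deposited counts are whole reads or fragments per gene without normalization, and the deposited FPKM are, by the authors, the counts per length of each gene and per library total. The labels name a VAHTS Universal V6 kit and the study's methods a stranded VAHTS kit. The counting program, its treatment of strand, the annotation release and the gene lengths are not given in the sources used here, so sense and antisense reads could not be told apart.

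Members and the other lists were chosen with earlier results of these data known. Levels are FPKM or CPM with exact Poisson intervals (95%). A ratio between libraries is that of the shares of counts, with an exact (Clopper-Pearson) interval. Reads are not independent molecules, and intervals cover counting error only. Calls of 2-fold and medians use log2(FPKM + 0.1) over the 11503 genes with mean FPKM of at least 1, a scale that understates changes of low genes. A library at 0 was set to 3 counts. Intervals of a difference of log2 ratios and of pair ratios use a normal approximation on the log counts.

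Named were the 10 members, genes of the other lists past 2-fold in both JQ1 comparisons (in either for BCL2 family genes), the treatment checks HEXIM1, CD69 and EGR1, and the 3 nearest patterns of the anti- and the pro-apoptotic member with the largest mean JQ1 ratio. A search planned on RefSeq proteins was made on GENCODE 44 coding sequences, without proline in the free places, and all 11 stretches equal the genome at their coordinates. Alternatives were other pseudocounts (0.01 and 1), filters, a 1.5-fold threshold, rescaled FPKM, centring on the median gene, edgeR 4.0.16 (TMM) and DESeq2 1.42.0 size factors, used for scaling alone, and, chosen after seeing the data, merged-exon lengths. Steps ran in Python 3.11.15 (scipy 1.17.1 for exact intervals, biopython 1.88 for translation, pandas 2.3.3 for tables) and were tested on simulated data.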

Additional observations from a re-analysis of the deposited data

Results flagged for a closer look

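BCL2L11, the BH3-only gene BIM, was flagged because its PHA ratio had opposite signs in the 2 backgrounds: the log2 ratio of counts was -0.48 in DMSO-treated cells (DMSO + PHA against DMSO) and 0.35 in JQ1-treated cells (JQ1 + PHA against JQ1), with both counting intervals excluding 0. Each ratio rests on 1 library per arm, and the difference between them was not tested against the spread between cultures. Groups of 1 library allow no check for a sample far from the others.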

How the results depend on the processing

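Each member's log2 ratio in the 4 comparisons was recomputed under 6 alternatives, which gave 240 values. Of these, 232 moved by no more than the counting error, 8 moved further and 0 reversed, and 5 changed sign, all for BAK1 with JQ1 or BAX with PHA near 0. With a pseudocount of 1, BCL2 was at -0.73 (JQ1) and -0.93 (JQ1 with PHA), so that 0 members passed 2-fold in either JQ1 comparison, against 1 in each. With a minimum mean FPKM of 5 the counts were also 0 and 0, since BCL2 was no longer tested. With no filter they were 3 and 2, and 1 in each PHA comparison against 0, through BCL2A1 and, for JQ1 alone, BCL2L11. Without PHA, a 1.5-fold threshold gave 2 and the merged-exon filter 2. The anti-apoptotic median with no filter was -0.78 without PHA (-0.46 with it) and -0.85 with PHA (-0.39). On merged exons the DMSO library's ratios were 0.912 for BCL2L11 to BCL2, 0.959 for PMAIP1 to MCL1 and 1.5 for BAX to BCL2. TMM, size factors and centring left every difference between JQ1 ratios within its interval. No paired analysis was possible because the labels give 1 library per condition and no shared replicate numbers. For the same reason no library could be left out. Depth limits BCL2A1 and BBC3, which had 0 to 52 and 20 to 33 counts.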
